A study of Homo sapiens with 24 samples.

Results

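The genes of homologous recombination and of the Fanconi anaemia pathway were followed through RNA sequencing of PPC1, a prostate cancer cell line, and of the polyploid giant cancer cells (PGCC) obtained from it. The members were the 41 genes of a fixed list, taken from the count table as protein-coding rows with those symbols, among 20312 protein-coding rows and 48162 rows in all. RAD51D had a second protein-coding row with no counts, so 42 rows matched and the row with counts was used. All 41 members passed the filter on low counts in every comparison.

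Libraries came from 4 conditions with 6 libraries each, 24 in all. Parental PPC1 cells, labelled UT, were plated on day 1, were not irradiated and were harvested on day 5. PGCC, labelled PGCC, were PPC1 cells that received 8 Gy of radiation on day 2, were harvested on day 5 and were retained on a 20 micron strainer. The conditions UT_LCL and PGCC_LCL were the same cells given 5 µM LCL521, a pro-drug inhibitor of the acid ceramidase ASAH1, for 5 h. No genotype differed between the conditions, and all libraries derive from this cell line alone. PGCC and parental cells differed in irradiation, in selection by size and in ploidy at once, and these cannot be told apart here. The replicate numbers 1 to 6 come from the labels, which do not say whether they mark separate cultures; pairs below are libraries with the same number.

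Homologous recombination repairs a double-strand break by copying from the sister chromatid. The break ends are resected to single strands, BRCA2 and its partners help to assemble a protein filament on them, the filament invades the sister duplex, and the resulting junctions are unwound or cut. The Fanconi anaemia pathway acts on crosslinked DNA: a core complex ubiquitinates FANCD2 and FANCI, which bring nucleases to the crosslink and hand the break to recombination. Most of this machinery acts in S and G2 phase, when a sister chromatid is present, and many of its genes are known to be transcribed periodically in the cell cycle.

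Total counts lay between 14835246 and 19906601 per library, and the members together held 11024 to 25804 counts per library. A floor of 3 counts corresponded to 0.15 to 0.207 CPM (a gene's counts scaled to the library size, with TMM factors over all libraries), and every member lay above it in every library, the fewest counts being 13, for RAD54B in a parental library. Of the markers of the labelled cell type, HOXB13 lay between 569 and 882 CPM in parental cells and between 307 and 547 CPM in PGCC, and the keratins KRT8 and KRT18 were at 56.4 CPM or more in those libraries. KLK3, KLK2, TMPRSS2 and FOLH1 had means under 0.2 CPM in every condition, so these luminal markers were absent or nearly so. The 8 measured markers of blood, stroma and endothelium summed to 7.78 to 14.7 CPM in parental cells and 9.78 to 12.3 CPM in PGCC, and CD3E and CD68 had no counts in those libraries. The first principal component, with 55.9% of the variance, separated PGCC from parental cells, and the second, with 16.5%, set the 8 libraries of replicates 4 and 5 apart from the other 16. These stand apart in every condition, so results that rest on them are given with and without them.

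Promoter windows from RefSeq (GRCh38.p14), from 250 bases before to 50 bases after each annotated start, were matched to 38 of the 41 members. The windows were searched on both strands for the E2F motif (TTTCCCGC, TTTGGCGC, TTTCGCGC or TTTGCCGC), for the cell cycle homology element TTTGAA and for the CCAAT box, none of which contains another. At least one window with the E2F letters was present for 5 of the 24 matched members that rose in PGCC (20.8%) and for 1 of the 14 others, FANCC (7.14%). The share was 5.4% over 15843 protein-coding genes and 3.31% over all 35116 windows. CCAAT was present for 13 of the 24 and 5 of the 14, against 42.1% of the protein-coding genes and 34.6% of all windows. TTTGAA was present for 3 of the 24 and 3 of the 14, against 15.8% of the protein-coding genes and 15.2% of the windows. These matches describe letters in the windows and show no binding. Of the 5 risers with the E2F letters, 4 are printed here, because their transcripts rose between 2.88-fold and 4.86-fold, with the matched letters in capitals. On GRCh38.p14 they are chr1:241847954-241848253 on the + strand for EXO1, chr3:10026187-10026486 on the + strand for FANCD2, chr7:152676092-152676391 on the - strand for XRCC2 and chr16:89816598-89816897 on the - strand for FANCA. Counted from the start as 1, the match begins at 5 in EXO1, at -2 in FANCD2, at 22 in XRCC2 and at -172 in FANCA.
EXO1: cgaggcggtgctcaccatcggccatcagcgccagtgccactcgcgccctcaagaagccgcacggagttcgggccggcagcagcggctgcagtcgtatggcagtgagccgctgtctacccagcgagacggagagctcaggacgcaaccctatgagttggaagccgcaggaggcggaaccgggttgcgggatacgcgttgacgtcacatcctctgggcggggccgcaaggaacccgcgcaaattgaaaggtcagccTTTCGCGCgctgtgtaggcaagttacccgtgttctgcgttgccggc
FANCD2: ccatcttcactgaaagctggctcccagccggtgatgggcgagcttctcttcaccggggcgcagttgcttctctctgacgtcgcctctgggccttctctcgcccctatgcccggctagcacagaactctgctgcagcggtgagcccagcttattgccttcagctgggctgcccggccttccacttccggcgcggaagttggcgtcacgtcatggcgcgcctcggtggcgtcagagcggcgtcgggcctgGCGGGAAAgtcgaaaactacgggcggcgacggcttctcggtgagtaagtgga
XRCC2: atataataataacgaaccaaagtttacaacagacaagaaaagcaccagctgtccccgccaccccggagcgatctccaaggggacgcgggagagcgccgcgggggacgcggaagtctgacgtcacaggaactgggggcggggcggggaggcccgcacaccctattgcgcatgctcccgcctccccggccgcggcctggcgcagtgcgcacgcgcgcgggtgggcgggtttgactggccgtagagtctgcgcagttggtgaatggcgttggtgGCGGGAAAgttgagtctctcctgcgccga
FANCA: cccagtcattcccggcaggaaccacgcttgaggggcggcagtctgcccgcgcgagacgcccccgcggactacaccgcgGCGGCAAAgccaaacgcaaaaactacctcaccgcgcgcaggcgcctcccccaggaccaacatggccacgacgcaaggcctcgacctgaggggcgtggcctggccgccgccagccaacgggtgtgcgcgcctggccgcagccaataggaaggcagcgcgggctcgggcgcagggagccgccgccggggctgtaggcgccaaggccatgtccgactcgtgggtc
The members with the largest rise and the largest fall lacked the E2F letters in their windows, so these are printed with TTTGAA and CCAAT, or their reverse complements, in capitals. They are chr17:61863479-61863778 for BRIP1 and chr11:22625774-22626073 for FANCF, both on the - strand of GRCh38.p14.
BRIP1: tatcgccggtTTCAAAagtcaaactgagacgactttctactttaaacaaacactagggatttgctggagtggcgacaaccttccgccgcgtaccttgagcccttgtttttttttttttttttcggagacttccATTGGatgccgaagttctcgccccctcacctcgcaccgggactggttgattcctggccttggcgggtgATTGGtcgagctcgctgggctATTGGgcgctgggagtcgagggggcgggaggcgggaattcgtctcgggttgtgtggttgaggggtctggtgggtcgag
FANCF: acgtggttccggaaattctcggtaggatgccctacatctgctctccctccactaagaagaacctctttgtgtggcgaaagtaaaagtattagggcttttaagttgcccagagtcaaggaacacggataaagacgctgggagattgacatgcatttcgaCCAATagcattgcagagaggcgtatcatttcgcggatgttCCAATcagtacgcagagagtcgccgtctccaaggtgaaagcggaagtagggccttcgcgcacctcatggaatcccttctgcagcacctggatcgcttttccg

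The comparison of PGCC with parental cells asked how the repair genes are expressed in the giant cells. In PGCC 26 of the 41 members rose, 3 fell and 12 were not called by edgeR's quasi-likelihood test at an adjusted p of 0.05. Over all 13812 genes tested, 47.4% were called, 23.1% higher and 24.3% lower. Of the members, 19 were called and over 2-fold higher, against 11% of all genes, and 1 was over 2-fold lower. The median log2 fold change was 0.94 over the members, with quartiles at 0.02 and 1.81, and -0.03 over all genes. The 6 PGCC libraries lay wholly above the 6 parental libraries for 23 members and wholly below for 1, against 13.9% and 12.9% of all genes. Within pairs of the same number, 24 of the 26 risers were higher in PGCC in all 6 pairs. The risers were called on these same libraries, so this count is no separate support, and the share over all genes was not computed. The members' share of all counts was 0.0682% to 0.0891% in the parental libraries and 0.125% to 0.136% in the PGCC libraries. CPM are relative to the other RNA of a library: fewer expressing cells and less RNA per cell cannot be told apart in these bulk samples, nor can a change in RNA per giant cell be read from them.

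**Figure D1:**
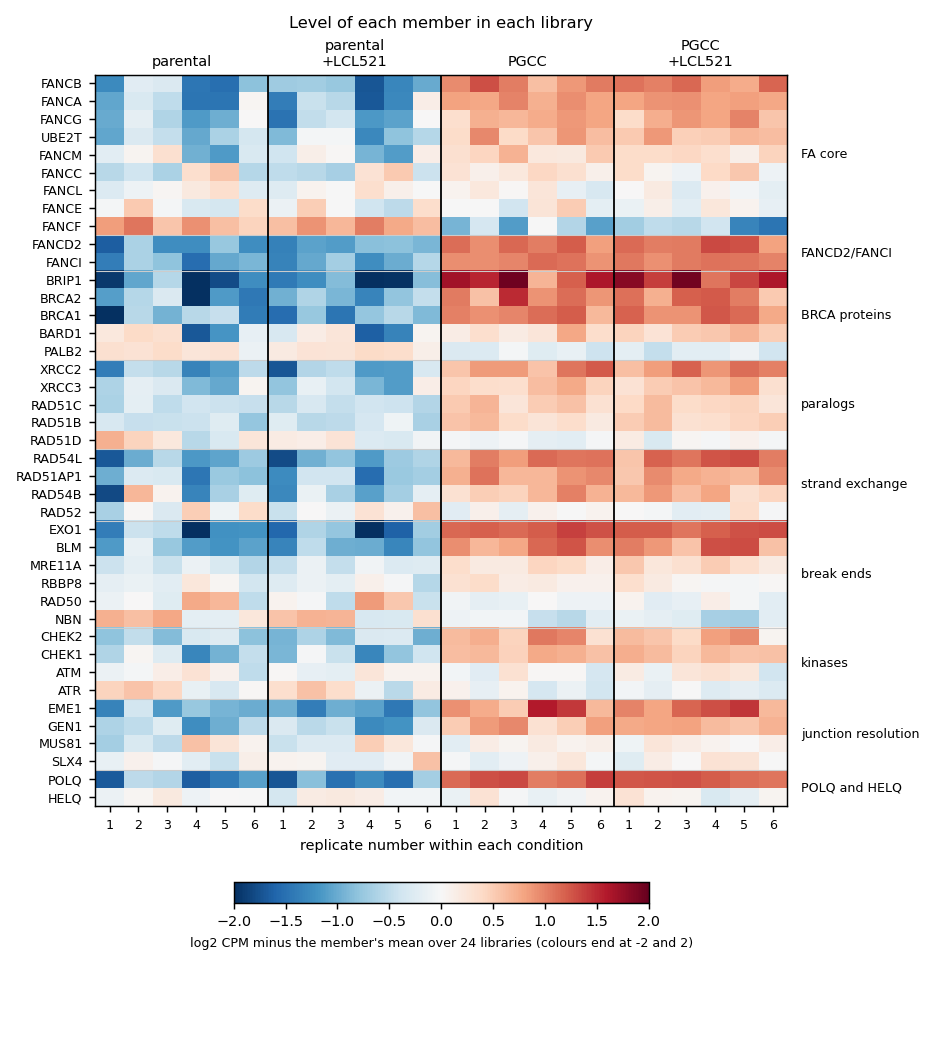
Heat map of the 41 members (rows, grouped by role) in the 24 libraries (columns, by condition and replicate number); colour is log2 CPM minus the member's mean over all libraries, and values beyond -2 and 2 take the end colours. The 23 risers whose groups did not overlap are lower in every parental library than in any PGCC library without LCL521, whereas RAD54B, FANCM and RBBP8 overlap, FANCF is higher in every parental library, and in the parental columns replicates 4 and 5 differ from the rest for several members, BARD1 among them.

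FANCD2 and FANCI form the heterodimer that is monoubiquitinated at a crosslink, and both rose. FANCD2 (ENSG00000144554; hg19 chr3:10068098-10143614, + strand) lay at 6.2, 8.3 and 12.6 CPM (lowest, median and highest) in parental cells and at 34.4, 40.9 and 45.2 CPM in PGCC. The lowest PGCC library thus held more than the highest parental library. FANCD2 was 4.4-fold higher (log2 2.14, SE 0.16, adjusted p = 2.31e-07). FANCI rose by 2.02 on the log2 scale (SE 0.14, adjusted p = 1.35e-07), from 8.18, 12 and 15.1 CPM to 43.5, 45.3 and 51.1 CPM, and its groups did not overlap either.

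The Fanconi core complex was divided. Of the 9 members grouped with it here, which include the conjugating enzyme UBE2T, 5 rose, 1 fell and 3 were not called. The median log2 fold change of these 9 was 0.70. FANCB, which with FANCL and FAAP100 forms the catalytic module, lay at 1.34, 1.86 and 3.25 CPM in parental cells and at 5.76, 7.51 and 9.26 CPM in PGCC. It rose by 1.81 (SE 0.24, adjusted p = 2.9e-05), on 23 to 56 counts per parental library. FANCA rose by 1.53, FANCG, its partner in the complex, by 1.29, and UBE2T, the ubiquitin-conjugating enzyme that works with the E3 ligase FANCL, by 1.26. FANCM, the translocase that anchors the complex on DNA, rose by 0.70, and its adjusted p of 0.0155 became 0.0503 without replicate 6. FANCL itself was at 5.74 ± 1 CPM in parental cells and 5.79 ± 0.851 CPM in PGCC (mean ± SD, n = 6; log2 fold change 0.02, 95% interval -0.31 to 0.34). FANCE, which joins the core to FANCD2, had a log2 fold change of 0.01 with an interval of -0.37 to 0.39.

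Among these 9 members only FANCF was called lower. FAAP100, which is not among them, fell as well and is given below with the further crosslink repair genes. FANCF, an adaptor of the core complex encoded by a single-exon gene (ENSG00000183161; hg19 chr11:22644079-22647387, - strand), lay at 7.75, 9.4 and 11.9 CPM in parental cells and at 2.61, 3.38 and 5.66 CPM in PGCC. All PGCC libraries were below all parental libraries. Its log2 fold change was -1.36 (SE 0.20, adjusted p = 7.41e-05), on 42 to 113 counts per PGCC library, and only 0.9% of the genes tested had a lower one. Per kilobase of gene length FANCF was the lowest member in PGCC, at 1.12 CPM per kb.

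The BRCA proteins and their partners held the largest rise of all members. BRIP1, the helicase that binds the BRCT domains of BRCA1 (ENSG00000136492; hg19 chr17:59758627-59940882, - strand), lay at 5.05, 9.96 and 18.9 CPM in parental cells and at 45.1, 83.4 and 108 CPM in PGCC. It was 7.37-fold higher (95% interval 4.74 to 11.4, adjusted p = 3.47e-06). In PGCC the libraries of replicates 4 and 5 were its lowest, at 45.1 and 64.3 CPM, and in parental cells their mean was 6.57 CPM against 12.9 CPM in the other replicates, so the mean difference within pairs was 3.05 in them and 2.87 in the others. BRCA2, which acts in filament assembly, rose by 2.04 (SE 0.26, adjusted p = 2.47e-05), and BRCA1, the ubiquitin ligase that promotes resection, by 1.89 (SE 0.23, adjusted p = 1.67e-05). BRCA1 lay at 2.99, 7.89 and 9.55 CPM in parental cells and at 20.7, 26.1 and 30.4 CPM in PGCC.

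PALB2, which bridges BRCA1 and BRCA2, moved the other way from both of its partners. It lay at 19.2, 25.5 and 27 CPM in parental cells and at 15.7, 17.4 and 20.2 CPM in PGCC, with overlapping groups but a lower PGCC value in all 6 pairs. Its log2 fold change was -0.47 (SE 0.10, adjusted p = 0.0018). In parental cells PALB2 ranked 11 of the 41 members by CPM per kb and BRCA1 and BRCA2 ranked 36 and 41. In PGCC their levels were 4.44 CPM per kb for PALB2, 3.67 for BRCA1 and 1.91 for BRCA2.

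BARD1, the obligate partner of BRCA1, was not called (log2 0.53, 95% interval -0.11 to 1.16, adjusted p = 0.157). Its parental values were 13.8, 15.5, 14.8, 3.65, 5.24 and 10.6 CPM in replicates 1 to 6, and its PGCC values were 13.1, 15, 13.3, 14.1, 20.2 and 15.2 CPM. The low parental values were those of replicates 4 and 5. The mean difference within pairs was 1.92 in replicates 4 and 5 and 0.06 in the other 4.

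**Figure D2:**
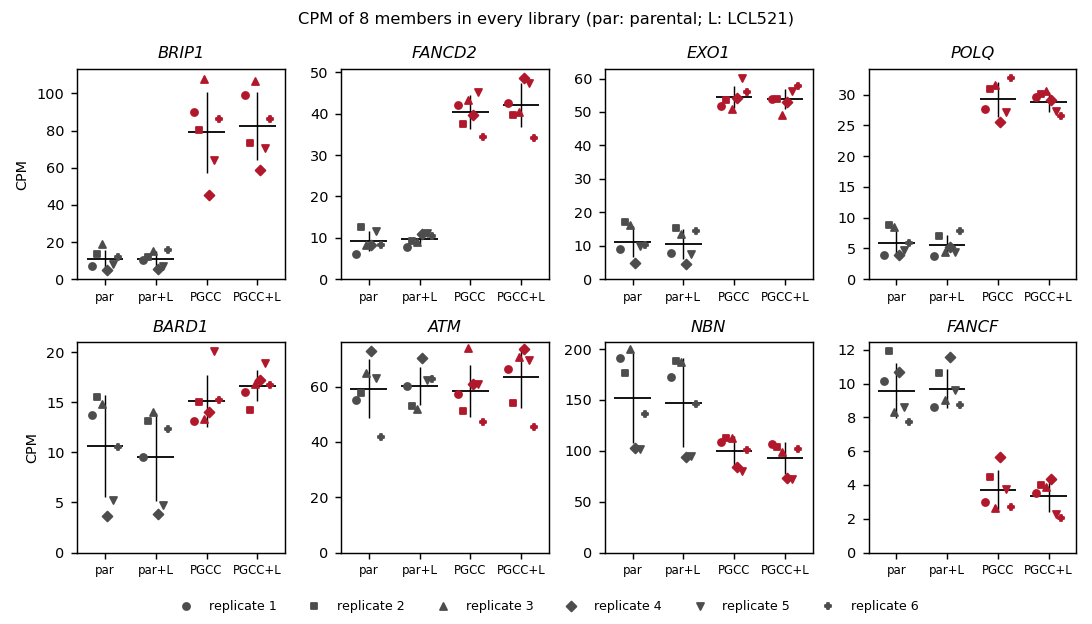
CPM (linear axes from 0) of 8 members in every library of the 4 conditions, with a symbol for each replicate number; horizontal bars are means and vertical bars 1 SD (n = 6). BRIP1, FANCD2, EXO1 and POLQ are higher in every PGCC library than in any parental library, FANCF is lower in every one, and ATM overlaps. BARD1 shows the parental libraries of replicates 4 and 5 below the others, and NBN shows these replicates below the others in all 4 conditions.

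Among the 5 recombination paralogs RAD51B, RAD51C, RAD51D, XRCC2 and XRCC3, which assist filament formation, 4 rose. XRCC2 (ENSG00000196584; hg19 chr7:152341864-152373250, - strand) rose furthest, from 8.38, 12.6 and 15.7 CPM to 32.1, 39.8 and 51.6 CPM (log2 1.74, SE 0.19, adjusted p = 6.23e-06), with no overlap. XRCC3 rose by 0.94, RAD51C by 0.92 and RAD51B by 0.84. RAD51D, which binds XRCC2 directly, was at 4.47, 7.69 and 10.8 CPM in parental cells and at 5.69, 6.25 and 6.47 CPM in PGCC, and was not called (log2 -0.27, 95% interval -0.68 to 0.13). Without replicates 4 and 5 its log2 fold change was -0.45 and was called, with an adjusted p of 0.0191.

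Of the factors of strand exchange, 3 rose and RAD52 was not called. RAD54L, a motor protein of strand invasion, lay at 2.61, 4.18 and 5.77 CPM in parental cells and at 13.3, 17.6 and 18.7 CPM in PGCC. It rose by 1.97 (SE 0.17, adjusted p = 8.96e-07), and RAD51AP1, which stimulates the same step, rose by 1.56 (SE 0.18, adjusted p = 1.03e-05). RAD54B, a paralog of RAD54L, rose by 0.95 (SE 0.33, adjusted p = 0.0268) on 13 to 67 counts per parental library and 53 to 98 per PGCC library. Its call was lost without replicate 4 (0.81, adjusted p = 0.0701), without replicate 5 (0.81, adjusted p = 0.0916), without replicate 6 (0.95, adjusted p = 0.0651) and without both 4 and 5 (0.61, adjusted p = 0.167). RAD52, which anneals single strands, had a log2 fold change of -0.04 (95% interval -0.41 to 0.34).

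Of the 6 factors acting on break ends, 4 rose, 1 fell and RAD50 was not called. EXO1, the exonuclease of long-range resection (ENSG00000174371; hg19 chr1:242011269-242058450, + strand), lay at 4.87, 10.1 and 17.2 CPM in parental cells and at 51, 53.9 and 60.1 CPM in PGCC. The lowest PGCC library held 51 CPM against 17.2 in the highest parental library, and the log2 fold change was 2.28 (SE 0.23, adjusted p = 3.14e-06). BLM, the helicase that unwinds the ends for long-range resection and later dissolves junctions, rose by 1.83 (SE 0.19, adjusted p = 3.26e-06). The MRE11 complex, which starts resection, did not move as a unit: MRE11A rose by 0.62 (SE 0.10, adjusted p = 0.000158), RAD50 had a log2 fold change of -0.26 (95% interval -0.68 to 0.15) and NBN fell.

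NBN, the subunit that recruits ATM, lay at 102, 157 and 200 CPM in parental cells and at 79.8, 105 and 112 CPM in PGCC. The groups overlapped only through the parental libraries of replicates 4 and 5, both at 102 CPM, and PGCC was lower in all 6 pairs. The log2 fold change was -0.59 (SE 0.17, adjusted p = 0.0124). By CPM per kb NBN was the highest member in parental cells, at 30.9, and ranked 3 in PGCC, at 20.3. RBBP8 (CtIP), the cofactor of MRE11, was the highest member in PGCC, at 35.5 CPM per kb, and rose by only 0.30 (adjusted p = 0.0216). That call was lost without replicate 1, 2, 3 or 6, where adjusted p lay between 0.052 and 0.0911, and without the filter on low counts (adjusted p = 0.0533).

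The kinases split by tier. The checkpoint kinases CHEK2 and CHEK1 rose, CHEK2 by 1.29 (SE 0.16, adjusted p = 1.47e-05) from 10.2, 11.9 and 15.6 CPM to 22.9, 29.8 and 38.5 CPM, and CHEK1 by 1.17 (SE 0.18, adjusted p = 0.000101). Neither showed overlap between groups. The CHEK1 locus overlaps the more abundant STT3A on the same strand. The apical kinases that phosphorylate them were not called. ATM lay at 41.7, 60.4 and 72.7 CPM in parental cells and at 47, 59 and 73.8 CPM in PGCC (log2 -0.01, 95% interval -0.30 to 0.27). ATR was not called (log2 -0.32, SE 0.15, adjusted p = 0.0889), and fell in other fits, namely with the replicate number as a block (adjusted p = 0.0333), without replicate 5 (-0.40, adjusted p = 0.0423) and without replicates 4 and 5 (-0.44, adjusted p = 0.00899).

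Of the junction-resolving nucleases, EME1 and GEN1 rose while MUS81 and SLX4 were not called. EME1, the regulatory partner of MUS81, whose locus overlaps the far more abundant LRRC59, lay at 2.56, 3.31 and 4.99 CPM in parental cells and at 9.21, 11.5 and 19.3 CPM in PGCC (log2 1.92, SE 0.22, adjusted p = 7.73e-06). MUS81, the catalytic subunit, lay at 15.6, 23.3 and 37.6 CPM and at 21.7, 26.7 and 28.4 CPM (log2 0.10, 95% interval -0.30 to 0.51). In CPM per kb, EME1 went from 1.48 to 5.59 and MUS81 from 7.16 to 7.66. GEN1, a resolvase that acts alone, rose by 1.33 (SE 0.17, adjusted p = 2.34e-05). SLX4, the scaffold for the structure-specific nucleases, had a log2 fold change of 0.10 (95% interval -0.15 to 0.34).

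POLQ and HELQ are related helicase-domain proteins that serve other repair routes, and POLQ rose while HELQ was not called. POLQ, the polymerase of microhomology-mediated end joining (hg19 chr3:121150278-121264853, - strand), lay at 3.92, 5.33 and 8.75 CPM in parental cells and at 25.6, 29.2 and 32.7 CPM in PGCC. It was 4.94-fold higher (log2 2.30, SE 0.20, adjusted p = 9.09e-07), with no overlap. HELQ, a helicase, averaged 8.57 CPM in both populations, with SDs of 0.673 in parental cells and 1.01 in PGCC (n = 6), and its 95% interval of the log2 fold change ran from -0.24 to 0.26.

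Across roles, the order of the members by CPM per kb changed. EXO1 ranked 18 in parental cells and 5 in PGCC, BRIP1 30 and 7, and FANCD2 31 and 16, whereas PALB2 ranked 11 and 24 and MUS81 6 and 17. The span from the lowest to the highest member was 66.1-fold in parental cells and 31.8-fold in PGCC, and 13 members lay under 2 CPM per kb in parental cells against 3 in PGCC.

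**Figure D3:**
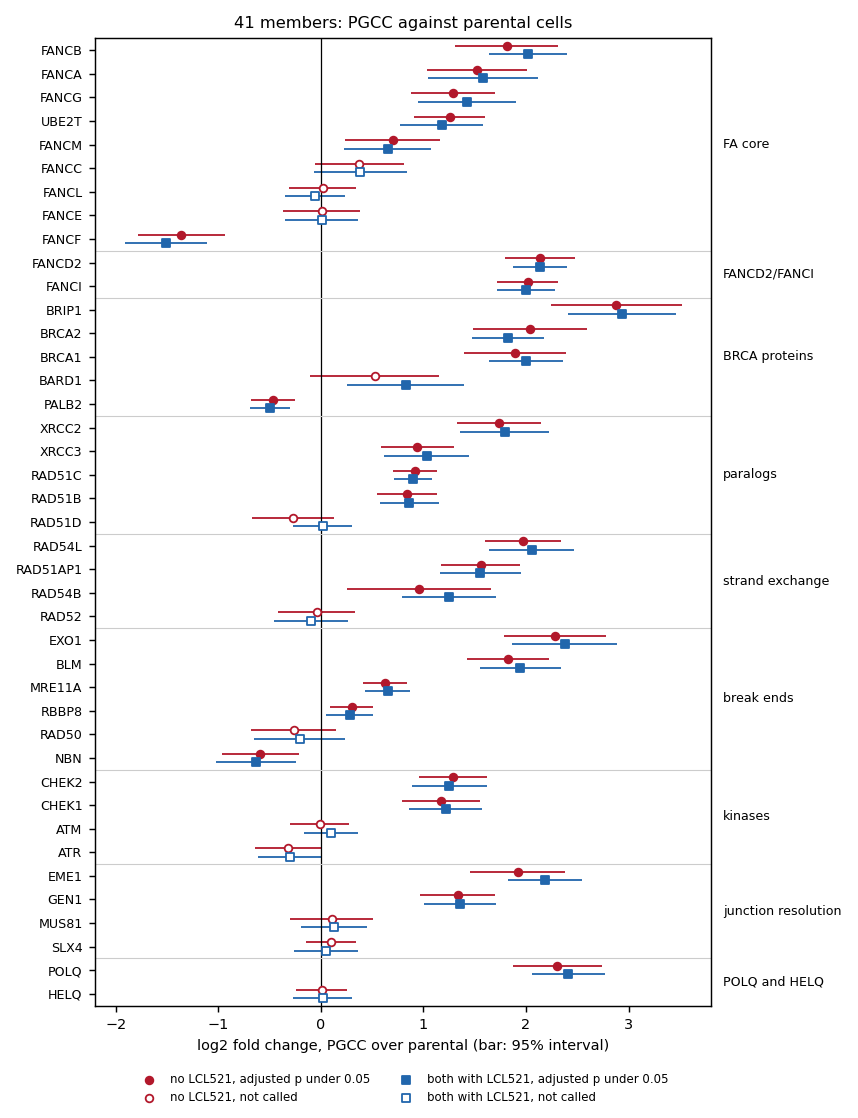
Log2 fold change of PGCC over parental cells for the 41 members by role, without LCL521 (circles) and with LCL521 in both (squares); bars are 95% intervals and filled symbols have an adjusted p under 0.05. Values run from -1.36 (FANCF) to 2.88 (BRIP1) without LCL521, and each member's symbols lie close together.

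Several members share their locus with another row of the table, and the sources used here do not give the strand setting of the counting. For 15 members an overlapping row held at least 10% as many counts as the member, the most for EME1, whose neighbour LRRC59 on the opposite strand held 216737 counts over all libraries against 3540 for EME1. The others are ATM, BRCA1, CHEK1, CHEK2, FANCA, FANCI, FANCL, GEN1, MRE11A, MUS81, NBN, RAD52, RAD54L and XRCC3. For CHEK1 the overlapping row, STT3A, lies on the same strand, with 80339 counts against 14562 for CHEK1. RAD52 also overlaps a row on its own strand, RP11-359B12.1, with 816 counts against 4293. Counting by strand would not tell these same-strand rows apart. The overlap is that of whole gene intervals, and shared exons were not examined. How far it affects the counts of these members was not tested.

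The size of the PGCC difference varied between pairs. The members' median difference within a pair was 1.03 ± 0.38 on the log2 scale (SD, n = 6 pairs) and ran from 0.60 in replicate 2 to 1.48 in replicate 4, while the median over all genes stayed between -0.03 and 0.00. In replicates 4 and 5 the median was 1.5 over the members, and in the other 4 pairs it was 0.88. Of the 26 risers, 21 differed more in replicates 4 and 5, and the share over all genes was not computed. In the parental libraries both of these replicates lay below the other 4 for 12 members and above them for 7, against 26.4% and 25.7% of all genes. BARD1 lay 1.60 lower on the log2 scale there, FANCM and FANCA 1.00 lower, and FANCC 0.98, RAD50 0.92 and MUS81 0.78 higher. In the PGCC libraries the same differences were 0.25 for BARD1, -0.28 for FANCM, -0.02 for FANCA, 0.20 for FANCC, 0.07 for RAD50 and 0.10 for MUS81. The sign of the PGCC difference was opposite in these sets of pairs for 10 of the 12 members that were not called and for none of the 29 that were. The calls were made on these same libraries, so this split follows in part from the calling and is no separate support. FANCE differed by -0.34 in 4 pairs and by 0.71 in replicates 4 and 5, FANCC by 0.71 and -0.07, MUS81 by 0.39 and -0.29 and RAD50 by 0.09 and -0.76. Without replicates 4 and 5, 27 members were higher and 5 lower, while calls over all genes rose to 54.6%, 27.7% higher and 26.9% lower: FANCC (0.73, adjusted p = 9.09e-05) and MUS81 (0.39, adjusted p = 0.0495) joined the risers, RAD54B left them, and ATR and RAD51D joined FANCF, PALB2 and NBN. What sets these replicates apart was not tested.

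**Figure D4:**
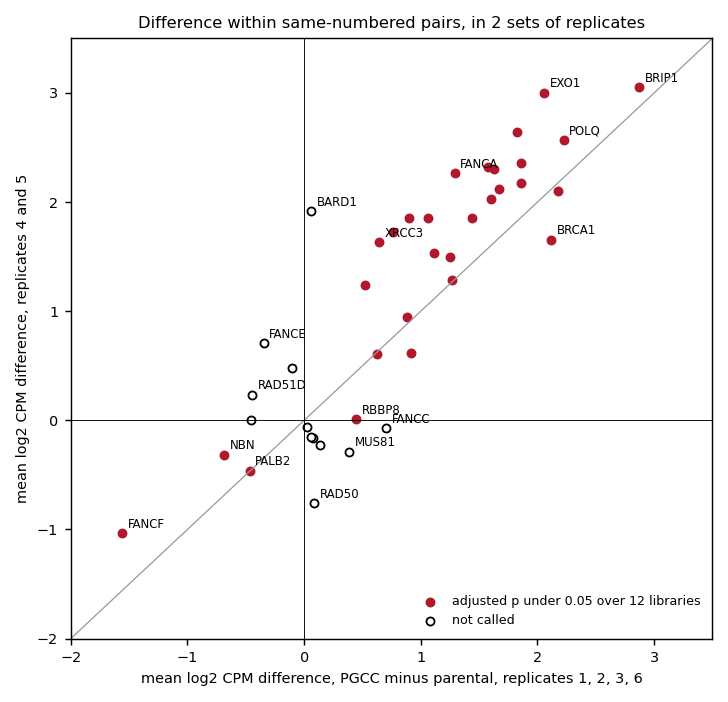
Mean log2 CPM difference of PGCC minus parental cells within same-numbered pairs for each member, in replicates 1, 2, 3 and 6 (x axis) and in replicates 4 and 5 (y axis); the grey line marks equal values. Filled points were called over these same 12 libraries, which favours the same sign in both sets, and they keep it. BARD1 (0.06 and 1.92), FANCE and RAD51D lie above the line and FANCC, MUS81 and RAD50 below it.

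The replicate numbers paired the libraries, and with them as a block 27 members were higher and 4 lower. Calls rose over all genes too, to 56.2%, 27.9% higher and 28.3% lower. FANCC, a core complex subunit, joined the risers (log2 0.45, adjusted p = 0.0361, against 0.38 and 0.145 without the block) and ATR the fallers.

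The same comparison was made in the libraries with LCL521, which are separate libraries with the same replicate numbers. Here 27 members rose and 3 fell, against 48.9% of 13818 genes called, 25% higher and 23.9% lower. The median log2 fold change was 1.03 over the members and -0.01 over all genes, and the groups did not overlap for 25 members with PGCC above and for 2 below, against 14.4% and 13.7% of all genes. The 26 risers and 3 fallers named above were called in the same direction here, and BARD1 was called in addition (log2 0.83, SE 0.27, adjusted p = 0.0196). That call was lost without replicate 1 (adjusted p = 0.0528) and without replicate 5 (adjusted p = 0.0576). BARD1 also had the largest difference between both comparisons, 0.30 on the log2 scale, and the median difference was 0.056. BRIP1 lay at 5.4, 11.2 and 15.5 CPM in parental cells with LCL521 and at 58.9, 79.8 and 107 CPM in PGCC with LCL521 (log2 2.94). FANCF lay at 8.62, 9.33 and 11.6 CPM and at 2.06, 3.69 and 4.37 CPM (log2 -1.51). RBBP8 (log2 0.28, adjusted p = 0.0404) again lost its call in several settings, among them the leaving out of replicate 1 (adjusted p = 0.171), and FANCM (0.65) did so without replicate 1 (adjusted p = 0.051).

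The effect of LCL521 itself was compared within each population. In parental cells no member was called, and none of 13277 genes was (0%). DESeq2 and limma-voom, also without the block, called 0 genes. At an unadjusted p under 0.05 there were 71 genes and 0 members, far fewer genes than that threshold passes by chance. The fit without the block was thus conservative here, and its lack of calls says little. The same holds for the unblocked fits below in PGCC and of the interaction. With the replicate block 115 genes were called (0.866%), and again 0 members, and 1648 genes and 0 members had an unadjusted p under 0.05. The median SE of the members was 0.225 without the block and 0.085 with it. The members' log2 fold changes ran from -0.27 for RAD54B to 0.20 for BRCA2. The smallest p was that of SLX4, which lay at 13.4, 17.2 and 19.8 CPM without and at 15.5, 18.1 and 27.2 CPM with LCL521 (log2 0.16, 95% interval -0.18 to 0.49, unadjusted p = 0.328). All members' 95% intervals lay between -1.08, for RAD54B, and 0.78, for BRCA2, and with the block between -0.65 and 0.58 for the same genes. The SE was largest for BARD1, at 0.40.

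In PGCC no member was called either. The test called 1 gene of 14151 (0.00707%), DESeq2 called 6 and limma-voom 0, and with the block 234 genes were called (1.65%), of which 0 were members. At an unadjusted p under 0.05 there were 218 genes and 0 members without the block, and 2030 genes and 5 members with it. Those 5 were NBN (log2 -0.11, adjusted p = 0.17), RBBP8 (-0.11, adjusted p = 0.176), ATM (0.12, adjusted p = 0.254), CHEK2 (-0.12, adjusted p = 0.292) and BARD1 (0.15, adjusted p = 0.347). CHEK2 was lower with LCL521 in all 6 pairs, at 22.9, 29.8 and 38.5 CPM without and 19.2, 27.9 and 35.9 CPM with it, and the groups overlapped. It was the 1 member of 41 whose pairs all went one way. By the exact paired test over sign changes chance gives this with p = 0.0312 per member, so 1 such member among 41 is near the chance level. Without the block RBBP8 had the smallest p of the members (log2 -0.10, 95% interval -0.26 to 0.05, unadjusted p = 0.166). All members' 95% intervals lay between -0.64, for FANCF, and 0.46, for BRIP1.

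The difference between the LCL521 effects in PGCC and in parental cells was tested as an interaction over the 24 libraries. Of 14555 genes 0 were called, with or without the block and by DESeq2 or limma-voom, and 60 genes, 0 of them members, had an unadjusted p under 0.05. The smallest p among the members was that of RAD51D (log2 0.27, 95% interval -0.20 to 0.75, unadjusted p = 0.243).

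**Figure D5:**
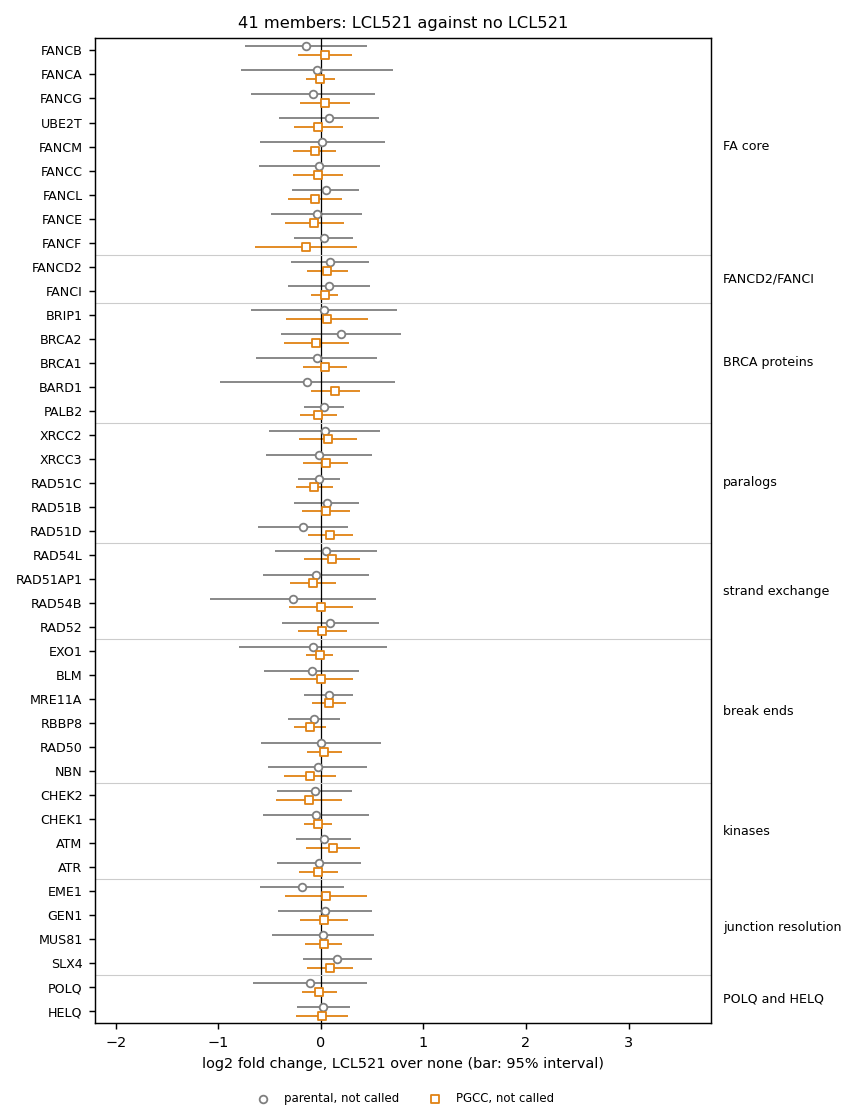
Log2 fold change of LCL521 over no LCL521 for the 41 members, in parental cells (circles) and in PGCC (squares), with 95% intervals and the same axis as the plot of PGCC over parental cells. All symbols are open because no member was called; estimates lie between -0.27 and 0.20 and the median SE is 0.225 in parental cells and 0.109 in PGCC.

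Other genes of the same pathways were counted for comparison. Over all 13812 genes tested, 23.1% were called higher and 24.3% lower. The risers among the further crosslink repair genes and among the signalling genes were near that share, so those lists as a whole did not stand out in rises. Of 31 further recombination genes 26 were tested, of which 17 rose and 3 fell in PGCC, with a median log2 fold change of 0.75. MND1, a factor of meiotic recombination, rose by 2.28 (adjusted p = 3.98e-06). SWSAP1, of the Shu complex, changed by -0.65 (adjusted p = 0.0312) and MCM9, a helicase of crosslink repair, by -0.62 (adjusted p = 0.00819). Of 14 further crosslink repair genes 3 rose and 5 fell, with a median of -0.06. C19orf40 (FAAP24), the partner of FANCM, rose by 1.23, and RFWD3, a ubiquitin ligase for RPA, by 0.70. On the log2 scale C17orf70 (FAAP100) changed by -0.67 (adjusted p = 0.000932) and WDR48, a cofactor of the deubiquitinase of FANCD2, by -0.66 (adjusted p = 0.000403). Of 20 checkpoint and break signalling genes 4 rose and 2 fell, with a median of -0.03. TIMELESS, of the fork protection complex, rose by 1.67 and MDC1, which binds phosphorylated H2AX, by 1.04. RAD17, the loader of the checkpoint clamp, had a log2 fold change of -0.46 and UIMC1, of the BRCA1-A complex, of -0.31.

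Cell cycle genes moved with the members. The shares over all genes were again 23.1% called higher and 24.3% lower. Of 20 S phase genes, none of them members, 19 were tested, of which 14 rose and 1 fell, with a median log2 fold change of 1.03, and their summed level was 714 to 1613 CPM in the parental libraries and 2448 to 2818 CPM in PGCC. All 20 G2 and M phase genes rose, with a median of 2.16 and a summed level of 371 to 1047 CPM in parental cells and 2475 to 3071 CPM in PGCC. MCM2, of the replicative helicase, rose by 0.93 (adjusted p = 0.000251), CDK1, the mitotic kinase, by 2.30 (adjusted p = 2.55e-06) and MKI67, a proliferation marker, by 2.19 (adjusted p = 6.67e-05). PCNA, the replication clamp, was not called (log2 0.35, adjusted p = 0.409), with 35.5 to 184 CPM in parental cells and 126 to 174 CPM in PGCC. The part of cell cycle composition in the members' differences was not tested.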

How the data were processed

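RNA was sequenced from 24 libraries of PPC1 cells, 6 in each of 4 conditions. The authors deposited raw read counts per gene, made per the submitters' processing notes with CASAVA, STAR and HTSeq on hg19; the annotation release and the strand setting are not given in the sources used here. The counts are whole numbers, not normalized, and no per-sample column was left out. Libraries of a condition differed by more than counting error in all 60 pairs (chi-square per degree of freedom at least 4.69).

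Each comparison was fitted to its 12 libraries with the two-sided quasi-likelihood test of edgeR (4.0.16, under R 4.3.3), after filterByExpr (minimum count 10, minimum total count 15) and TMM scaling. P-values were corrected over all genes tested (Benjamini-Hochberg, 0.05). The interaction used all 24 libraries. The SE of a log2 fold change was taken from it and its F statistic, and intervals are at the 95% level. Levels are CPM scaled by TMM over all libraries. Nothing in the labels says that same-condition libraries came from separate cultures, so p-values measure only the spread between these libraries, which may be technical. Replicate numbers come from the labels, and same-numbered libraries deviated together in every pair (correlation at least 0.17), so the number was also used as a block. The procedure was tested on simulated counts. Without a replicate effect both fits recovered most changed genes and missed some. Once a replicate effect of assumed size was added, the fit without a block missed the changed genes. The block recovered most of them, with some false calls. That size was not fitted to these data, so the simulation does not show how many genes the unblocked fit missed here.

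The members and the other gene lists were chosen with earlier results of these data known. Every member is reported; in each role the members with the largest and the smallest log2 fold change, and any called against its group, are given in full. For LCL521 the rule took called members or else the smallest p, and from each list of other pathway genes the 2 largest rises and 2 largest falls. Values of some genes that these lists take in are not reported here. The overlapping rows, the replicate differences and the ranks per kb were described after their values were seen. The alternatives replaced the test (DESeq2 1.42.0, limma-voom 3.58.1), the scaling (RLE, upper quartile, totals alone), the filter (none, or 10 counts in each library) or the fit (all libraries together, the block, a correction for gene length), or left out replicates 4 and 5 or each replicate in turn.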

Additional observations from a re-analysis of the deposited data

Results flagged for a closer look

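In 164 sets of 6 libraries (41 members in 4 conditions), 7 had a highest or lowest library set apart from the other 5 by more than Dixon's 95% limit (0.625 of the range); chance flags about 1 in 20 sets, so this number is near that level. BLM in parental cells reached 6.26 CPM in replicate 2, with the others at 3.03 to 4.09 CPM. PALB2 in parental cells was at 19.2 CPM in replicate 6, with the others at 24.6 to 27 CPM. SLX4 in parental cells with LCL521 was at 27.2 CPM in replicate 6, with the others at 15.5 to 19.1 CPM. BARD1 in PGCC was at 20.2 CPM in replicate 5, with the others at 13.1 to 15.2 CPM. MUS81 in PGCC was at 21.7 CPM in replicate 1, with the others at 25.9 to 28.4 CPM. In PGCC with LCL521, RAD52 was at 13 CPM and FANCM at 16.1 CPM in replicate 5, with the others at 8.78 to 10.2 CPM and 18.8 to 20.2 CPM.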

How the results depend on the processing

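Between PGCC and parental cells 26 members were higher and 3 lower under DESeq2, limma-voom, RLE factors, upper quartile factors, library totals, the stricter filter, the fit of all 24 libraries and the gene length correction, and 25 and 3 without a filter; without single replicates 23 to 26 were higher and 3 to 4 lower. Leaving out replicates 4 and 5 gave 5 lower, and 6 with the replicate block, where FANCE was called (-0.33, adjusted p = 0.0172). The replicate block gave 27 higher and 4 lower, changed no call of a member in the LCL521 comparisons, and with LCL521 in both populations gave 28 higher and 3 lower. In that comparison 26 to 29 members were higher and 3 to 4 lower in the other settings, and 24 to 27 higher without single replicates. Library totals moved the share of higher calls over all genes from 48.7% to 60.2%, and no filter to 57.4%.

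Values of 7 members that were not called changed sign, and the cause was not tested. Leaving out replicates 4 and 5 gave -0.341 for FANCE, 0.0942 for RAD50, -0.086 for SLX4, 0.0613 for RAD52 and 0.08 for ATM, and with the block -0.329, 0.101, -0.085, 0.085 and 0.0778. No filter gave -0.0169 for FANCE, -0.0153 for HELQ and -0.00345 for FANCL. RAD52 was 0.0156 under limma-voom, 0.0518 with library totals and 0.00891 with the block and length correction. ATM was 0.000336 under DESeq2, 0.000406 with RLE factors, 0.0829 with library totals and 0.0248 with the stricter filter. Without single replicates the values ran from -0.166 to 0.128 for FANCE, from -0.0104 to 0.17 for SLX4, from -0.052 to 0.0494 for HELQ, from -0.106 to 0.0591 for RAD52, from -0.0451 to 0.136 for FANCL and from -0.0659 to 0.0473 for ATM.

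Depth limits RAD54B and FANCB most, with 13 and 23 counts in their lowest parental libraries.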
